A study of Ovis aries with 3 samples.

Results

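*SOX10*, *FOXD3*, *TFAP2B*, *ETS1*, *ERBB3*, *EDNRB* and *EDNRA* are genes of the neural crest and of the endothelin receptors that its cells carry. They are 7 of the 26478 genes listed in the count tables, chosen by name and not by their values, and each was found once, under the identifiers ENSOARG00020008279, ENSOARG00020025839, ENSOARG00020016055, ENSOARG00020008513, ENSOARG00020004665, ENSOARG00020015802 and ENSOARG00020024024 in the same order. They were measured in single cells of whole sheep embryos, in 3 libraries of 1 group each: a Hulunbuir short-tailed sheep embryo at embryonic day 19 (E19 HSTS), a Hu sheep embryo at the same day (E19 HS) and Hu sheep at embryonic day 16 (E16 HS). The HSTS breed carries a loss-of-function allele of the mesoderm gene *T*, while HS carries the normal allele. All adult HSTS that the authors typed were homozygous for the mutation, and all adult HS for the normal allele. The paper takes this typing to hold for the animals used in sequencing. The genotype of the embryos themselves cannot be read from these counts. For E16 HS the sample label names 1 embryo where the methods speak of 3, which could not be settled. HSTS at embryonic day 16 was not analysed here, so breed was compared at E19 and age within HS, and both comparisons share the E19 HS library. With 1 library per group there is no spread between embryos to set a difference against, so no test was made, and every interval given is an exact 95% interval for counting error only.

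The neural crest arises at the border of the neural tube, leaves it, and spreads through the embryo to form Schwann cells and other glia, melanocytes, sensory and autonomic neurons and much of the skeleton of the face. *TFAP2B* and *FOXD3* belong to the transcription factors that specify the crest, *ETS1* acts in its delamination and migration, and *SOX10* marks migrating crest and its glial and melanocyte descendants. *ERBB3* is the neuregulin receptor of crest-derived glial precursors, *EDNRB* is the endothelin receptor of melanoblasts and enteric crest, and *EDNRA* is the endothelin receptor of facial crest mesenchyme and of smooth muscle. Outside the crest, *ETS1* and *EDNRB* are known from endothelium and *TFAP2B* from surface ectoderm, kidney tubules and some neurons.

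Values for the 3 libraries are given throughout in the order E19 HSTS, E19 HS, E16 HS. After filtering, 9618, 10629 and 11329 cells were kept, with medians of 8675, 6900 and 9046 unique molecular identifiers (UMIs) per cell. The kept cells held between 88733467 and 113213654 UMIs per library. Between 38 and 42 cell barcodes were found in both libraries of any pair, of which 31 to 37 passed the filter in both. Erythroid-like cells, the cells that should lack all of these genes, made up 27.4%, 13.4% and 17.7% of the kept cells, although red cells were lysed during preparation. Their median depth was 17491, 17570.5 and 13946.5 UMIs, against 7250.5, 6348 and 8129 UMIs in the other cells, so the share of them with a UMI of a gene is a generous measure of free RNA.

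*SOX10* was the rarest of the genes apart from *FOXD3*. It had 39 UMIs in 33 cells in E19 HSTS, 25 UMIs in 24 cells in E19 HS and 49 UMIs in 46 cells in E16 HS. These were 0.343% (0.236 to 0.482%), 0.226% (0.145 to 0.336%) and 0.406% (0.297 to 0.541%) of the kept cells, and in all 103 of 31576 cells. Most of these cells carried a single UMI, namely 28, 23 and 43 of them, and no cell carried more than 3. Among erythroid-like cells *SOX10* was found in 3 of 2634, 0 of 1420 and 1 of 2004, that is 0.114%, 0% with an upper limit of 0.259%, and 0.0499%. In E19 HS the share over all cells, 0.226%, was thus below the limit that the erythroid-like cells allow, so the level there cannot be told from background by this measure alone. When each cell was thinned to 3000 UMIs the shares were 0.106%, 0.108% and 0.130%, and the order between the E19 libraries was gone.

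*FOXD3*, an early crest specifier, was close to the detection limit. It had 5, 8 and 7 UMIs in 5, 7 and 7 cells, and 1 of those cells was erythroid-like. No difference between libraries was detectable at this depth, and *FOXD3* with fewer than 20 UMIs per library is given by counts only.

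*TFAP2B* was present in 4.82%, 4.35% and 3.86% of cells. Scaled to UMIs per 1000000 UMIs of the kept cells (CPM), its level was 10.7, 11.1 and 9.20. The shares in erythroid-like cells were 0.494%, 0.845% and 0.599%, and up to 17 UMIs were counted in 1 cell, so its detection stood well above that background. *ETS1* was present in 5.86%, 6.13% and 9.07% of cells, at 8.07, 10.5 and 12.9 CPM, against 0.759%, 0.634% and 0.998% of erythroid-like cells. Both genes were thus several times more frequent over all cells than in the cells that should lack them.

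Among the receptors, *ERBB3* was present in 1.45%, 1.25% and 1.77% of cells, at 1.71, 1.61 and 1.93 CPM, with 0.190%, 0.141% and 0.0998% of erythroid-like cells. *EDNRB* was present in 4.24%, 4.71% and 3.75% of cells, at 6.84, 8.86 and 10.2 CPM, with 0.987%, 0.563% and 0.449% of erythroid-like cells. In E16 HS its UMIs lay in a smaller share of cells at a higher count per cell, up to 20 UMIs, against at most 8 and 11 in the E19 libraries. *EDNRA* was the widespread member, present in 27.6%, 29.6% and 30.7% of cells at 78.3, 95.3 and 76.7 CPM. Its shares in erythroid-like cells, 4.40%, 4.58% and 5.19%, were the highest background of the 7.

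**Figure D1:**
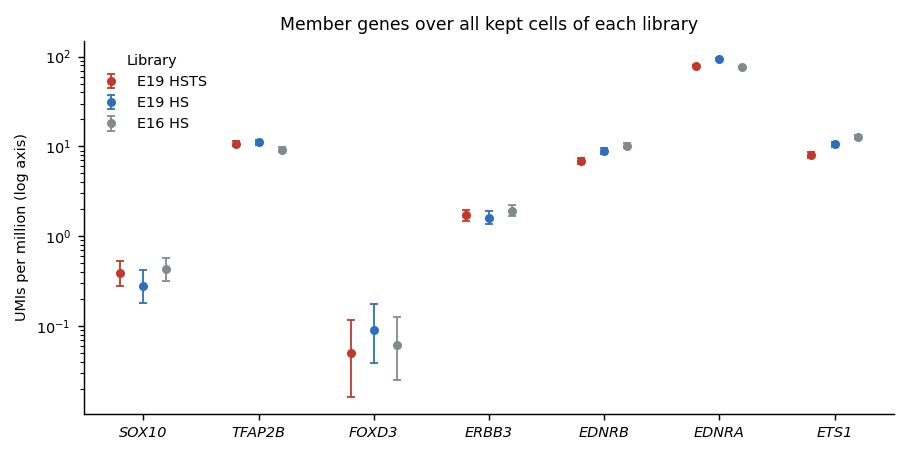
Level of each gene in CPM (log axis), by library; points are library totals and bars are exact 95% Poisson intervals. *EDNRA* sits at 76.7 to 95.3 CPM in all libraries, *SOX10* at 0.282 to 0.433 CPM, and the wide bars of *FOXD3* rest on 5 to 8 UMIs.

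Between the breeds at E19, none of the genes differed by as much as 2-fold. Of the 6 with at least 20 UMIs in either library 0 passed 2-fold, where 5.06% of the 13172 genes with that many UMIs did (2.09% higher and 2.98% lower in E19 HSTS). The ratio of E19 HSTS over E19 HS was 0.772 (0.696 to 0.857) for *EDNRB*, 0.768 (0.698 to 0.845) for *ETS1* and 0.822 (0.797 to 0.848) for *EDNRA*, all lower in E19 HSTS beyond counting error. The share of erythroid-like cells moved with these ratios. Without these cells they became 0.958 for *EDNRB*, 0.990 for *ETS1* and 1.05 (1.02 to 1.09) for *EDNRA*, so that the direction of *EDNRA* turned. *TFAP2B* had a ratio of 0.965 (0.884 to 1.05) and *ERBB3* of 1.06 (0.843 to 1.33), and these became 1.25 and 1.36 without erythroid-like cells. The *SOX10* ratio was 1.39 with an interval of 0.820 to 2.40, which includes 1, and that of *FOXD3* was 0.557 (0.143 to 1.93). For *SOX10* the ratio ran from 1.09 to 1.68 over all settings tried.

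Between the ages, E19 HS over E16 HS, again 0 of 6 genes passed 2-fold, where 15.6% of 13442 genes did (7.6% higher and 8.02% lower at E19). *TFAP2B* with a ratio of 1.21 (1.11 to 1.32) and *EDNRA* with 1.24 (1.20 to 1.28) were higher at E19. *ETS1* with 0.818 (0.753 to 0.889) and *EDNRB* with 0.868 (0.792 to 0.951) were lower, but the *EDNRB* ratio was 1.00 after TMM scaling and 1.34 (1.13 to 1.58) in thinned cells. The *ETS1* ratio was 1.03 in thinned cells. *SOX10*, at 0.651 (0.385 to 1.07), *ERBB3*, at 0.833 (0.670 to 1.03), and *FOXD3*, at 1.46 (0.462 to 4.72), had intervals that include 1. These library totals hid larger differences within cell classes, in opposite directions, which are described with each gene further on.

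Cells with *SOX10* carried the other crest genes far more often than the remaining cells did. *TFAP2B* was found in 21 of the 33 cells with *SOX10* in E19 HSTS, 11 of 24 in E19 HS and 37 of 46 in E16 HS. These were 63.6% (45.1 to 79.6%), 45.8% (25.6 to 67.2%) and 80.4% (66.1 to 90.6%), against 4.62%, 4.25% and 3.55% of cells without *SOX10*. Relative to the number of cells that independent detection would give, this was 13.2, 10.5 and 20.9 times as many. Depth differed little in E19 HSTS, where the median was 8973 UMIs in cells with *SOX10* and 8673 in the others, but more in E19 HS with 9422 against 6895 and in E16 HS with 10586.5 against 9029. After thinning, 9, 10 and 13 cells with *SOX10* remained, and 3, 1 and 6 of them had *TFAP2B*, so in E19 HS the relation then rested on 1 cell. With the 8% of cells of highest doublet score left out, the shares were 71.4%, 47.4% and 82.9%.

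The receptors followed in the same cells. *ERBB3* was found in 11, 5 and 8 cells with *SOX10*, or 33.3% (18.0 to 51.8%), 20.8% (7.13 to 42.2%) and 17.4% (7.82 to 31.4%), against 1.34%, 1.21% and 1.71% of the others. *EDNRB* was found in 15, 9 and 23 of them, or 45.5%, 37.5% and 50%, against 4.10%, 4.64% and 3.56%. For both receptors the interval in cells with *SOX10* lay above the share in other cells in each library. *EDNRA*, frequent everywhere, was found in 63.6%, 50% and 71.7% of cells with *SOX10* against 27.5%, 29.5% and 30.6%, which is 2.31, 1.69 and 2.34 times the number under independence. In E19 HS its interval of 29.1 to 70.9% includes the share of the other cells.

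The remaining transcription factors differed between libraries in this relation. *ETS1* was found in 33.3% (18.0 to 51.8%), 16.7% (4.74 to 37.4%) and 45.7% (30.9 to 61.0%) of cells with *SOX10*, against 5.77%, 6.11% and 8.92% of the others, so that only E19 HS had an interval including the level of the other cells. *FOXD3* shared 0, 1 and 1 cells with *SOX10*. The 0 of 33 in E19 HSTS allow a share of cells with a *FOXD3* UMI of up to 10.6% at this depth, which does not limit how many express it, and nothing can be read from 1 cell. *FOXD3* cells instead carried *TFAP2B* in 4 of 5, 1 of 7 and 4 of 7 cases and *EDNRB* in 4, 1 and 2.

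**Figure D2:**
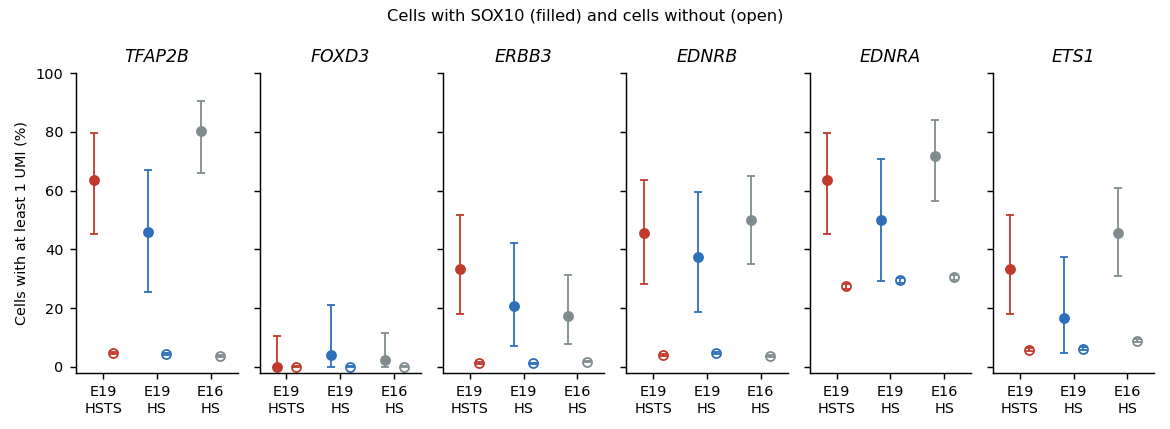
Percent of cells with at least 1 UMI of each other gene among cells with *SOX10* (33, 24 and 46 cells) and among all other kept cells, by library; bars are exact 95% binomial intervals. *TFAP2B* is in 3.55 to 4.62% of other cells and in 45.8 to 80.4% of cells with *SOX10*, while *EDNRA* differs least.

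By level, the crest genes were likewise concentrated in these cells. *TFAP2B* stood at 96.3, 73.6 and 173 CPM in cells with *SOX10* against 10.4, 11 and 8.38 CPM elsewhere, a ratio of 9.25 (6.48 to 12.8), 6.72 (3.97 to 10.7) and 20.6 (16.6 to 25.4). *EDNRB* stood at 88.5, 77.7 and 103 CPM, with ratios of 13.6, 8.97 and 10.6, and *ERBB3* at 52.0, 20.4 and 16.0 CPM, with ratios of 34.4 (20.4 to 55.1), 13.1 (4.19 to 31.3) and 8.60 (3.88 to 16.6). The *ERBB3* level in cells with *SOX10* rested on 20, 5 and 9 UMIs, with intervals of 31.8 to 80.4, 6.64 to 47.7 and 7.33 to 30.4 CPM, which overlap within each comparison of breed or age. *EDNRA* stood at 143, 110.4 and 153 CPM against 78.0, 95.2 and 76.4 CPM, and in E19 HS the interval of the ratio, 0.764 to 1.69, includes 1.

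Not every cell with *SOX10* had this combination. Of the 33, 24 and 46 cells, 2, 7 and 2 had none of the other genes, whereas 4, 2 and 8 had 4 of the 6 others and 2, 0 and 2 had 5. Counted the other way, at least 2 of *SOX10*, *TFAP2B*, *FOXD3* and *ERBB3* were found together in 66, 41 and 95 cells, or 0.686% (0.531 to 0.872%), 0.386% (0.277 to 0.523%) and 0.839% (0.679 to 1.02%) of the kept cells, and 27, 14 and 39 of these had *SOX10*. The share in this count was smaller in E19 HS than in E19 HSTS, with intervals that do not overlap. The count includes *SOX10* itself, so it is not independent of the *SOX10* shares, whose intervals overlapped. *TFAP2B* and *ERBB3*, both also found in epithelium-like cells, shared 41, 27 and 58 cells. Depth was lowest in E19 HS, and its part in the difference between the E19 libraries was not tested. Only 4.53%, 2.38% and 8.47% of cells with *TFAP2B* had a *SOX10* UMI. *SOX10* was sparsely detected, and most *TFAP2B* UMIs lay in classes other than crest, as given further on. The part of each in this low share was not tested.

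Known crest markers other than these genes were checked in the cells with *SOX10*. At least 2 of 12 such markers were found in 25 of 33, 13 of 24 and 18 of 46 cells (75.8%, 54.2% and 39.1%), against 4.38%, 3.40% and 3.88% of other cells. Markers of other types were found in part of these cells. At least 2 of 11 mesenchyme markers were found in 16, 3 and 30 of the cells with *SOX10* (48.5%, 12.5% and 65.2%), against 35.5%, 40.7% and 59.5% of the others. At least 2 of 8 neural progenitor markers were found in 13, 9 and 4 (39.4%, 37.5% and 8.70%), against 13.9%, 16.1% and 8.67%. *PAX3* is on this list and on the crest list, so the 2 counts are not independent. At least 2 of 9 somite markers were found in 0, 0 and 0 of them, against 9.62%, 7.11% and 6.05%. At least 2 of 11 endothelium markers were found in 0, 0 and 1, against 2.27%, 3.07% and 1.46%. The glial gene *S100B* was detected in 2, 0 and 2 cells with *SOX10*, and the melanoblast genes *DCT* and *TYRP1* in 0.

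Lists of crest-related genes were compared between cells with *SOX10* and the rest, as UMIs counted in cells with *SOX10* over the UMIs that the other cells of the same library would give at equal depth. The 3 libraries were summed and only genes with at least 500 UMIs were counted. Over all 8877 such genes, 5.99% were at least 2-fold higher and 9.92% at least 2-fold lower, with a median of 1.15. Of 9 crest specifiers 6 were higher and 2 lower, with a median of 2.04. The higher ones were led by *TFAP2A*, the close relative of *TFAP2B*, at 9.01 (6.77 to 11.8), *SOX5* at 4.52 and *PAX3* at 3.08, whereas *SNAI2*, a regulator of delamination, was found in 0 cells with *SOX10*. Of 10 genes of crest migration and adhesion 2 were higher, *MOXD1* at 13.0 (9.42 to 17.5) and *CDH6* at 5.31 (4.35 to 6.43), and *CDH11* was lower at 0.245. Below the limit of 500 UMIs lay the adhesion gene *L1CAM*, which shared 2, 3 and 6 cells with *SOX10*.

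Genes of the crest's descendants showed no common direction. Among 3 melanoblast genes *MITF*, the master regulator of melanocytes, was higher at 4.29 (2.14 to 7.68) and *KIT* lower at 0.272. Of the 3 Schwann and glial genes counted 1 was higher, *FABP7* at 2.74. Of 7 ectomesenchyme genes, which mark the facial crest, 3 were lower and 1 higher, with a median of 0.511, and *PRRX1* was at 0.0903. Both autonomic genes counted, *HAND2* and *GATA3*, were lower, at 0.140 and 0.

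Signalling partners of the receptors were mixed in the same count. Of 8 genes of the endothelin pathway 3 were higher, *MEF2C* at 5.58, *MME* at 2.88 and *PLCB4* at 2.59, and 2 were lower. The latter were *EDN3*, the ligand of *EDNRB*, at 0 (upper limit 0.722), and *ECE1*, the enzyme that activates endothelins, at 0.118. Of 5 ERBB and neuregulin genes 0 were higher and 2 lower, *NRG2* at 0 and *EGFR* at 0.310. Between the libraries, counted over genes with at least 20 UMIs as for the 5.06% and 15.6% above, 0 of 10 endothelin pathway genes passed 2-fold between the breeds and 1 of 10, *EDN1*, between the ages, higher at E19. Of the ERBB and neuregulin genes 1 of 12, *NRG2*, passed between the breeds, and 3 of 11 were higher (*NRG3*, *ERBB4* and *HBEGF*) and 1 lower (*NRG2*) at E19 than at E16. *ERBB2*, the partner with which *ERBB3* signals, had 362 UMIs in all and shared 1, 1 and 4 cells with *SOX10*. Of 11 ETS family genes besides *ETS1*, 1 was higher, with a median of 1.06.

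The cells were then clustered without using the 7 genes, into 18 clusters of which 16 were named after marker lists as resembling 12 classes. No cluster was neural crest-like at this resolution. Most cells with *SOX10* fell into the somite-like class, namely 26 of 33, 13 of 24 and 38 of 46, although none of them had 2 somite markers. Of the 2 clusters in that class one was led by *TWIST1*, *COL2A1* and *VCAN*, of which *TWIST1* and *VCAN* are known from crest as well, and the other by *TWIST1*, *COL2A1* and *GUCY2C*. Of the 3 erythroid-like cells with *SOX10* in E19 HSTS, all 3 were among the 8% with the highest doublet scores, and in all 5, 5 and 5 cells with *SOX10* were.

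At a finer resolution, with 34 clusters, a neural crest-like cluster led by *APOD*, *PTGDS* and *PLAC9* held 75, 85 and 113 cells. It took up 12, 8 and 19 of the cells with *SOX10*, or 36.4%, 33.3% and 41.3% of them. *SOX10* stood there at 20.7, 12.3 and 20.7 CPM in 16.0%, 9.41% and 16.8% of its cells. *TFAP2B* stood at 129 (103 to 159), 140 (113 to 172) and 166 (141 to 194) CPM in 61.3%, 57.6% and 61.9% of cells, and *EDNRA* at 191, 206 and 187 CPM. For both, the libraries were similar and the intervals overlapped.

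*ERBB3* and *EDNRB* had their lowest values in that cluster at E16. *ERBB3* stood at 38.5 (25.1 to 56.4), 26.1 (15.2 to 41.8) and 16.6 (9.49 to 27.0) CPM and *EDNRB* at 105 (82.1 to 133), 103 (79.8 to 131) and 75.7 (59.4 to 95.2) CPM, with overlapping intervals in every pair of libraries. Overlap of such intervals does not show that levels were equal, and ratios were not computed for this cluster. *ETS1* stood at 47.4 (32.4 to 66.8), 38.4 (24.9 to 56.7) and 64.3 (49.3 to 82.5) CPM, with overlapping intervals too. In the 63, 77 and 94 cells of the cluster without a *SOX10* UMI the other genes were frequent too, with *EDNRB* in 54.0%, 44.2% and 31.9% and *ERBB3* in 20.6%, 20.8% and 11.7%. *TFAP2B* was found in 58.7%, 57.1% and 56.4% of them, against 75%, 62.5% and 89.5% of the 12, 8 and 19 cells with *SOX10*, and the intervals were apart in E16 HS only (66.9 to 98.7% with *SOX10*, 45.8 to 66.6% without). Outside the cluster, cells with *SOX10* had *TFAP2B* in 57.1%, 37.5% and 74.1% of cases, at median depths of 11386, 11093.5 and 13905 UMIs.

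The cluster nevertheless held a minor share of each gene's molecules. It carried 8.14%, 9.22% and 15.4% of the *TFAP2B* UMIs, 15.3%, 11.9% and 7.31% of those of *ERBB3* and 10.4%, 8.52% and 6.32% of those of *EDNRB*. For *ETS1* the shares were 3.98%, 2.68% and 4.26%, and for *EDNRA* 1.65%, 1.59% and 2.07%. The rest lay in other clusters. What follows goes gene by gene through the classes of the coarser resolution, none of which was neural crest-like. The UMIs of this cluster are therefore counted again within those classes. The somite-like class, into which most cells with *SOX10* fell, thus includes crest-like cells.

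**Figure D3:**
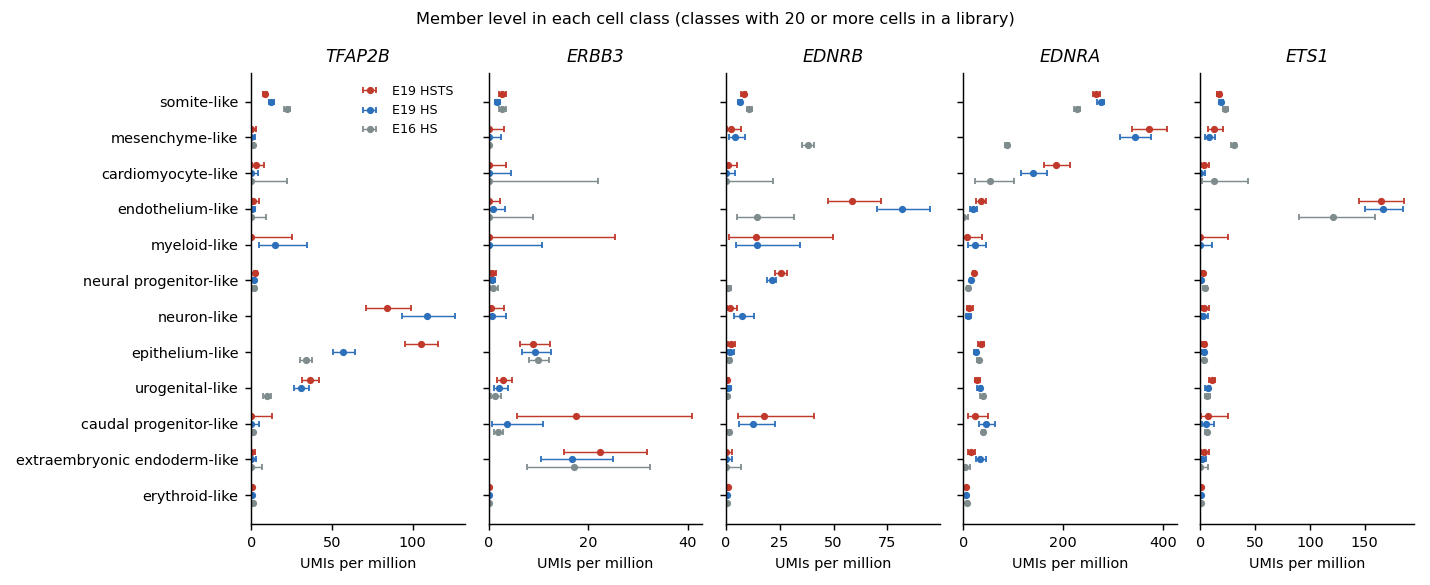
Level of *TFAP2B*, *ERBB3*, *EDNRB*, *EDNRA* and *ETS1* (CPM, linear axes that differ between genes) in classes with 20 or more cells of a library. Points are the summed UMIs of the class in a library and bars are exact 95% Poisson intervals. *SOX10* and *FOXD3* are not shown. *TFAP2B* peaks at E19 in epithelium-like and neuron-like cells, *ETS1* in endothelium-like cells (121 to 167 CPM), and *EDNRA* in mesenchyme-like and somite-like cells.

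*SOX10* outside the crest was found in epithelium-like cells of E19 HS. There 6 of the 24 cells with *SOX10* were epithelium-like, against 0 of 33 in E19 HSTS and 1 of 46 in E16 HS. Of these 6 cells 5 had at least 2 markers of the otic vesicle, the precursor of the inner ear, in which *SOX10* is also known to be expressed. *EYA1* was found in 3 of them, *DLX5* in 4 and *LMX1A* in 2, against 3.02%, 25.9% and 1.32% of 529 other epithelium-like cells, whereas *SPARCL1* was found in 0 against 6.99% and *FBXO2* in 0 against 0%. None of the 6 had *TFAP2B*, *EDNRB*, *EDNRA* or *ETS1*, 1 had *ERBB3*, none had 2 crest markers, and 1 had a high doublet score. Over all classes, cells with at least 2 otic markers numbered 32, 52 and 42, and *SOX10* was found in 0 (up to 10.9%), 5 (9.62%, 3.20 to 21.0%) and 0 (up to 8.41%) of them. The intervals of the 3 libraries overlap, so a difference between them was not detectable with these numbers of cells. The text dwells on these cells because of their values.

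*TFAP2B* had its highest class levels at E19 in epithelium-like and neuron-like cells. In E19 HSTS epithelium-like cells (398 cells, 105 CPM, 95.4 to 115) and neuron-like cells (261 cells, 84.2 CPM, 71.2 to 98.9) had the highest levels, with overlapping intervals. In E19 HS neuron-like cells (278 cells, 109 CPM, 93.1 to 126) stood above epithelium-like cells (535 cells, 57.1 CPM, 50.6 to 64.3). Urogenital-like cells stood at 36.3, 30.8 and 9.49 CPM and somite-like cells at 8.77, 12.5 and 22.2 CPM, so that at E19 the first and at E16 the second came next in order. E16 HS had 19 neuron-like cells, too few to rank, and epithelium-like cells came first there. Epithelium-like cells held 40.7%, 27.9% and 34.8% of all *TFAP2B* UMIs, and somite-like cells 18.8%, 31.7% and 49.2%.

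The epithelial level differed between the libraries. E19 HSTS over E19 HS gave 1.84 (1.58 to 2.15), with 39.4% against 21.3% of cells. In thinned cells the shares were 18.8% (15.0 to 23.0%) against 13.1% (10.4 to 16.3%), which overlap. The E16 HS level was lower still, 33.8 CPM (30.4 to 37.4), but at the finer resolution it included a cluster led by the urothelial gene *UPK3A*, with 329 cells in E16 HS, 2 and 7 cells in the E19 libraries and a *TFAP2B* level of 0.205 CPM at E16. In the cluster led by *CXCL14* at that resolution, with 358, 493 and 474 cells, *TFAP2B* stood at 102 (92.0 to 113), 55.4 (48.7 to 62.9) and 61.7 (54.7 to 69.2) CPM. There E19 HS and E16 HS had overlapping intervals and E19 HSTS remained higher than both. In neuron-like and somite-like cells the ratio between the breeds pointed the other way, 0.775 (0.618 to 0.971) and 0.704 (0.587 to 0.843).

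*TFAP2B* cells carried markers of the tissue they lay in. *TFAP2A* was found in 37.7%, 39.4% and 43.5% of cells with *TFAP2B* against 1.63%, 1.75% and 1.46% of others, and *EPCAM*, an epithelial adhesion molecule, in 54.3%, 36.4% and 41.9% against 9%, 12.3% and 20%. Within urogenital-like cells *LHX1*, a gene of kidney tubule precursors, was found in 54.4%, 50% and 87.0% of cells with *TFAP2B* against 34.6%, 25% and 38.2% of the others. The last value rests on 23 cells with *TFAP2B*. Within somite-like cells *TFAP2A* was found in 36.6%, 47.9% and 43.3% of cells with *TFAP2B* against 1.78%, 1.84% and 1.18%, so both factors shared the cells of that class in which the crest cells lay.

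*ERBB3* outside the crest was highest in epithelial classes. Its highest class level was in extraembryonic endoderm-like cells, with 22.4 (15.2 to 31.8), 16.7 (10.6 to 25) and 17.1 (7.81 to 32.4) CPM in 113, 117 and 58 cells. Epithelium-like cells followed at 8.93, 9.35 and 9.98 CPM and held 21.8%, 31.5% and 48.9% of its UMIs. The libraries did not differ beyond counting error in either class. Caudal progenitor-like cells of E19 HSTS stood at 17.5 CPM (5.69 to 40.9), on 5 UMIs in 33 cells, which overlaps both. In somite-like cells, which include most cells with *SOX10*, the level was 2.66, 1.67 and 2.73 CPM. The ratio of E19 HSTS over E19 HS there was 1.59 (1.06 to 2.42). *EPCAM* was found in 48.9%, 51.9% and 64.2% of cells with *ERBB3*, against 10.6%, 12.8% and 20.1% of others, while *ERBB2* shared just 3, 0 and 6 cells with it.

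The classes that held *EDNRB* differed between E16 HS and the E19 libraries. In the E19 libraries endothelium-like cells had its highest class level, 58.7 (47.3 to 72.1) CPM in E19 HSTS and 81.6 (70.1 to 94.6) CPM in E19 HS, from 168 and 283 cells. Neural progenitor-like cells followed at 25.4 (22.8 to 28.3) and 21.3 (19.2 to 23.5) CPM, and being numerous they held 48.3% and 48.9% of its UMIs. In E16 HS the neural progenitor-like level was 1.22 (0.527 to 2.40) CPM, a ratio of E19 HS over E16 HS of 17.4 (8.77 to 40.7). Precursor cells lining the neural tube are known to express *EDNRB*.

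In E16 HS the gene lay instead in mesenchyme-like cells, at 38.1 (35.6 to 40.8) CPM, against 2.49 and 4.17 CPM in the E19 libraries. At the finer resolution this class fell almost wholly into 2 clusters. A cluster led by *REG4* took 1239 of its 1568 cells in E16 HS and fewer than 20 in each E19 library, and held 823 of the 839 *EDNRB* UMIs of the class in E16 HS, at 44.1 CPM (41.1 to 47.2). A cluster led by *DCN* took 141 of 143, 174 of 177 and 320 of 1568 cells, with *EDNRB* at 1.71 (0.207 to 6.16), 4.30 (1.58 to 9.36) and 4.85 (2.77 to 7.88) CPM, so its libraries did not differ beyond counting error. The ratio of 0.109 (0.0401 to 0.239) for mesenchyme-like cells thus compares mostly different clusters. What tissue the *REG4* cluster is cannot be told from the markers used.

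Endothelium-like cells numbered 51 in E16 HS and had 6 *EDNRB* UMIs, 14.5 CPM (5.32 to 31.5), a ratio of E19 HS over E16 HS of 5.64 (2.54 to 15.6). When endothelial cells were instead taken as those with at least 2 endothelium markers, the levels were 46.0, 65.9 and 53.2 CPM, and the E16 level no longer stood apart. Between the breeds, *EDNRB* in endothelium-like cells had a ratio of E19 HSTS over E19 HS of 0.719 (0.552 to 0.931). In neural progenitor-like cells it was 1.20 (1.03 to 1.39) and in somite-like cells 1.27 (1.03 to 1.58), so the classes differed in direction. At the finer resolution a cluster of 103, 144 and 7 cells, led by *HCRT*, *SPON1* and *ENKUR*, had *EDNRB* at 75.8 (54.4 to 103) and 85.4 (65.9 to 109) CPM in the E19 libraries. The 7 cells of E16 HS had 0 UMIs. It was named notochord-like on 1 leading marker, *SPON1*, and shared the leading gene *CAMK2N1* with neural progenitor-like clusters. No class of the coarser resolution was notochord-like, so these UMIs are already counted in the classes above and are not a further source.

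**Figure D4:**
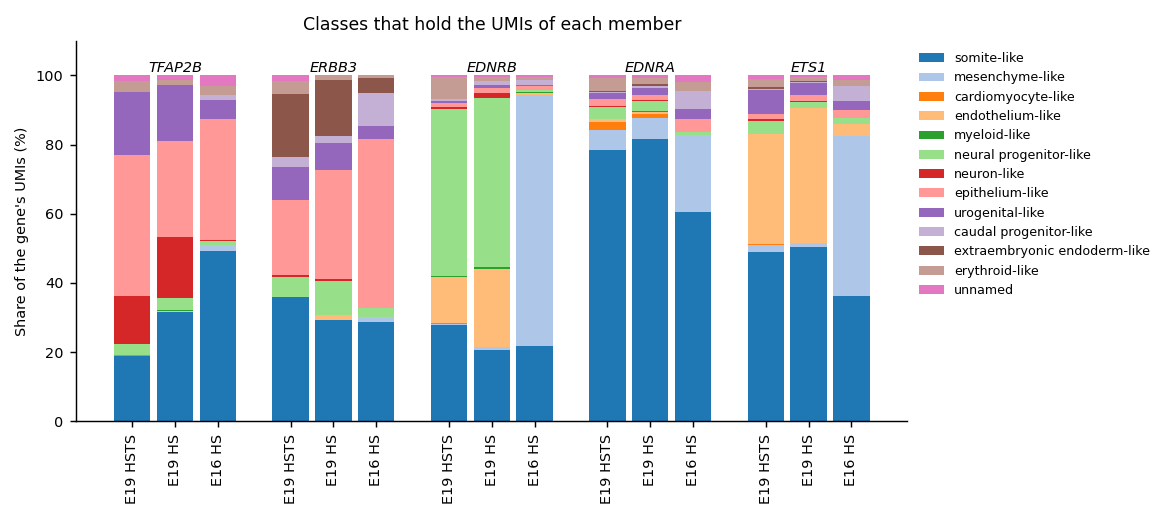
Share of the UMIs of *TFAP2B*, *ERBB3*, *EDNRB*, *EDNRA* and *ETS1*, in percent, that lay in each cell class, by library. Each bar is 1 library and adds up to all UMIs of the gene in its kept cells. *SOX10* and *FOXD3* are not shown. The *EDNRB* bar of E16 HS is mostly mesenchyme-like (72.6%), where neural progenitor-like cells take 48.3% and 48.9% at E19.

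*EDNRA* marked mesenchyme in the wide sense. Mesenchyme-like cells had 371 (338 to 407), 344 (314 to 376) and 87.9 (84.0 to 91.9) CPM, with 86.7%, 81.4% and 52.2% of 143, 177 and 1568 cells positive. In E16 HS the *REG4*-led cells of this class stood at 61.1 CPM, whereas the *DCN*-led cells stood at 379, 352 and 238 CPM. Somite-like cells, at 266, 275 and 227 CPM, held 78.3%, 81.7% and 60.4% of all *EDNRA* UMIs. Within somite-like cells the ratio between the breeds was 0.969 (0.936 to 1.00), against 0.822 over the whole libraries. At the finer resolution, clusters led by *POSTN* (1911 cells) and *SVEP1* (1413 cells) were named mesenchyme-like, with *EDNRA* at 256 and 227 CPM. They lay almost wholly outside the mesenchyme-like class of the coarser resolution. The line between somite-like and mesenchyme-like cells thus depends on the resolution.

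Cardiomyocyte-like cells also had *EDNRA*, the receptor through which endothelin acts on heart muscle. Their levels were 187 (162 to 214), 140 (115 to 168) and 53.7 (24.6 to 102) CPM in 83, 112 and 28 cells, and the ratio of E19 HSTS over E19 HS was 1.34 (1.06 to 1.69). *COL1A2*, a fibrillar collagen gene, was found in 53.6%, 57.1% and 60.6% of cells with *EDNRA* against 12.5%, 14.2% and 29.8% of others, and *PDGFRA* in 24.0%, 17.0% and 26.1% against 2.87%, 3.22% and 7.61%. The receptors *EDNRA* and *EDNRB* shared 127, 111 and 292 cells, which was 1.13, 0.749 and 2.24 times the number under independence. The excess in E16 HS included mesenchyme-like cells, where 21.1% of cells with *EDNRA* had *EDNRB* against 8.80% of those without.

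*ETS1* had its highest class level in endothelium-like cells of every library, at 164 (145 to 186), 167 (150 to 185) and 121 (89.6 to 159) CPM and in 68.5%, 57.2% and 51.0% of their cells. The breeds did not differ there beyond counting error, with a ratio of 0.985 (0.836 to 1.16). *CDH5*, the cadherin of endothelial junctions, was found in 13.3%, 12.4% and 1.17% of cells with *ETS1* against 0.265%, 0.481% and 0.0582% of others. Because somite-like cells were far more numerous, they held 49.0%, 50.5% and 36.2% of the *ETS1* UMIs at 17.2, 18.7 and 22.8 CPM. The extent of that class depends on the resolution, as described for *EDNRA*. In E16 HS mesenchyme-like cells stood at 30.5 CPM against 12.4 and 7.65 CPM at E19, where the *REG4*-led cells stood at 33.1 CPM and the *DCN*-led cells at 15.8 CPM.

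*ETS1* and *EDNRB*, both high in endothelium-like cells, were found together there about as often as independence would give, at 0.933, 0.976 and 1.18 times. Within that class 20%, 26.5% and 11.5% of cells with *ETS1* had *EDNRB*, against 24.5%, 28.1% and 8% of cells without it. Within somite-like cells, which include most cells with *SOX10*, the same shares were 9.43% against 2.54%, 4.51% against 2.21%, and 14.3% against 3.25%. Within mesenchyme-like cells of E16 HS they were 31.0% against 8.93%. Over whole libraries both genes shared 2.68, 2.15 and 5.26 times the cells expected under independence.

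Across classes, the direction of the breed ratio was mixed for 3 genes. Among classes with at least 20 cells in both libraries and 20 UMIs in either, the interval of E19 HSTS over E19 HS lay above 1 in 1 and below 1 in 2 of 5 classes for *TFAP2B*, in 2 and 1 of 3 for *EDNRB*, and in 4 and 1 of 10 for *EDNRA*. For *ETS1* it lay above 1 in 2 of 4 classes and below in 0. Its largest value, 2.46 (1.32 to 4.76), was in neural progenitor-like cells on 30 and 17 UMIs. That class met the limit of 20 UMIs through E19 HSTS alone. How often such intervals exclude 1 over all genes was not computed, so these counts cannot be called unusual. *SOX10* met the limits on cells and UMIs in somite-like cells only, and between the breeds through E19 HSTS alone. There 31 UMIs for E19 HSTS against 13 for E19 HS gave a ratio of 2.62 (1.33 to 5.44). In thinned somite-like cells *SOX10* was found in 0.294% (0.127 to 0.578%) and 0.174% (0.0640 to 0.379%), which overlap. That ratio compares a class in which the cells with *SOX10* numbered 26 and 13, while the ratio over the whole libraries was 1.39 (0.820 to 2.40). Between the ages, *SOX10* in somite-like cells had a ratio of E19 HS over E16 HS of 0.291 (0.143 to 0.554), from 13 against 41 UMIs. This comparison met the limit through E16 HS alone. E19 HS was the lower library both times, but both ratios rest on its same 13 UMIs and were kept only because the other library was higher. In thinned somite-like cells of E16 HS *SOX10* was found in 0.496% (0.264 to 0.847%), which overlaps the E19 HS interval. The widest spread of ratios between the ages was that of *EDNRB*, from 0.109 in mesenchyme-like to 17.4 in neural progenitor-like cells.

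**Figure D5:**
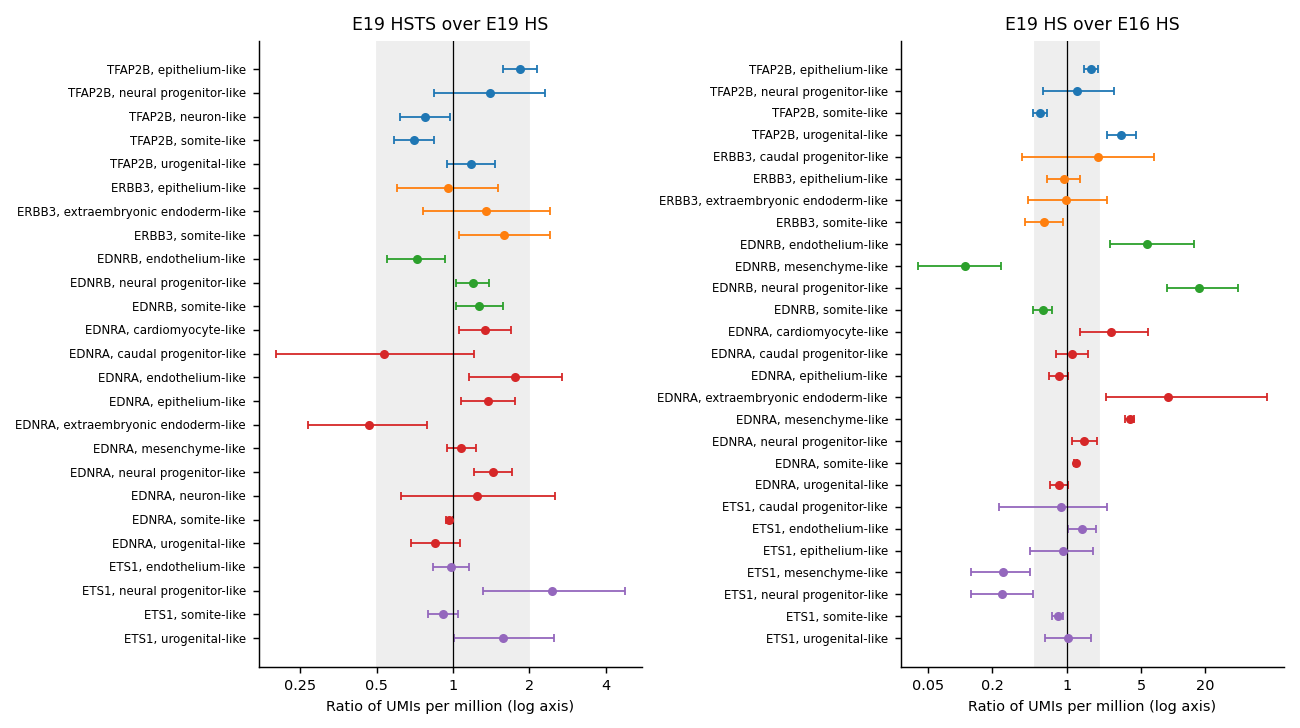
Ratio of CPM of *TFAP2B*, *ERBB3*, *EDNRB*, *EDNRA* and *ETS1* in each cell class with UMIs in both libraries (log axis). E19 HSTS over E19 HS is on the left and E19 HS over E16 HS on the right. Points are ratios of summed UMIs, bars are exact 95% intervals and the grey band is the range within 2-fold. *SOX10* and *FOXD3* are not shown. Nearly all breed ratios shown lie within the band, whereas *EDNRB* between the ages ranges from 0.109 to 17.4.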

How the data were processed

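Whole embryos were dissociated with collagenase, red cells were lysed, and cells were captured with the 10x Chromium 3′ kit v3.1. The authors aligned reads to Ovis_aries_genome_v1.0 and made UMI counts per cell for each gene in Cell Ranger 6.1.2, working further in R 4.1.2 with Seurat 4.1.1. The deposited values are raw UMI counts, without normalization, of 11114 barcodes for E19 HSTS, while E19 HS had 12064 and E16 HS had 12645. The 3′ counts depend on how well each gene's 3′ end is annotated, so levels were compared between libraries and classes and not between genes.

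Kept cells had 1000 to 30000 UMIs, 200 to 6000 genes and no more than 10% of UMIs from genes named MT-, which left 86.5%, 88.1% and 89.6%. UMIs were summed per library or class and divided by its UMIs, times 1000000. Intervals were exact Poisson for sums, exact conditional for ratios and exact binomial (Clopper-Pearson) for shares, at the 95% level. PCR duplicates are removed by the UMIs, and intervals cover counting error only. Counts were handled in Python 3.11.15 (scipy 1.17.1, pandas 2.3.3, numpy 2.4.6).

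Cells of the 3 libraries were clustered together in R 4.3.3 with Seurat 5.3.0, on 2000 variable genes without the 7 genes, with counts scaled to 10000 per cell, the mitochondrial share regressed out, 25 components, resolution 0.25 and seed 1. Of 21 marker lists, the list with the most members among the 10 leading genes named a cluster, as resembling that type, if 3 markers were detected in at least 10% of its cells. Where lists tied, also at 0 members, the largest mean standardised marker expression decided, as for 1 erythroid-like cluster that held most such cells of E16 HS. Limits that left shallow clusters unnamed were set after the data were seen; they held 687, 853 and 1438 cells (7.14%, 8.03% and 12.7%). Scrublet in scanpy 1.11.5 marked 193, 0 and 198 cells, so it did not work for E19 HS, and its marks removed no cell.

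For each gene the 10 genes with the largest lowest ratio over the libraries, between cells with and without it, were named, provided they carried a symbol and had 20 or more UMIs in the cells with it in each library. The 13 gene lists hold 127 genes, of which 120 were listed. Genes and lists were chosen with earlier results of these data known. Cluster leaders and genes of pairs other than those of the lists were named after their values were seen. The ratios with their intervals, co-detection, the ranking of similar genes and the naming of clusters were tested on simulated data. Thinning was not. The alternatives were other filters, TMM scaling (edgeR 4.0.16), thinning to 3000 UMIs, at least 2 UMIs for detection, other classes, and leaving out erythroid-like cells or the 8% with the highest doublet scores. Results for some genes of the lists are not reported here. No sequences are shown.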

Additional observations from a re-analysis of the deposited data

Results flagged for a closer look

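*FOXD3* and *SOX10* shared no cell in E19 HSTS, where the number of shared cells over the number under independence was 0 (0 of 33 cells with *SOX10*), whereas 1 of 24 in E19 HS and 1 of 46 in E16 HS had both. With 5 to 7 *FOXD3* cells per library this difference was not detectable, and it was not tested.

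*EDNRB* differed between the ages in opposite directions in different classes. E19 HS over E16 HS was 17.4 in neural progenitor-like cells and 0.109 in mesenchyme-like cells. The first rests on 8 UMIs in E16 HS and the second on *REG4*-led cells, which at the finer resolution were a cluster nearly absent from E19. The difference between the classes was not tested, since each age has 1 library.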

How the results depend on the processing

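No paired analysis was possible because each group holds 1 library, and for the same reason no replicate could be left out. In cells thinned to 3000 UMIs, *SOX10* was found in 0.106%, 0.108% and 0.130% of cells (order of libraries as above), and 33.3%, 10.0% and 46.2% of cells with it had *TFAP2B*. The ratios of E19 HSTS over E19 HS were then 0.836 for *TFAP2B*, 0 for *FOXD3*, 1.42 for *ERBB3* and 0.891 for *EDNRA*, and those of E19 HS over E16 HS were 1.41 for *TFAP2B*, 1.35 for *EDNRA*, 1.03 for *ETS1* and, with the direction turned, 1.34 for *EDNRB*. With at least 2 UMIs for detection *SOX10* was found in 0.0520%, 0.00941% and 0.0265% of cells, and *TFAP2B* in 40.0% of the 5 such cells of E19 HSTS, 0% of the 1 of E19 HS and 66.7% of the 3 of E16 HS. Without erythroid-like cells the ratios between the breeds were 1.25 for *TFAP2B*, 1.36 for *ERBB3*, 0.958 for *EDNRB*, 0.990 for *ETS1* and, turned, 1.05 for *EDNRA*, and *EDNRA* was 1.33 between the ages. TMM scaling gave 0.855 for *EDNRA* between the breeds and, between the ages, 1.40 for *TFAP2B*, 1.43 for *EDNRA*, 0.946 for *ETS1* and 1.00 for *EDNRB*, whose direction turned. With all deposited cells kept, 47 values moved by less than their interval and 6 by more, with no direction turned. The stricter filter, at least 500 genes and under 5% mitochondrial UMIs, gave 1.08 for *TFAP2B* between the ages.

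With cells taken by at least 2 markers in place of clusters, the levels were 28.0, 18.5 and 8.44 CPM for *TFAP2B* in epithelium, 46.0, 65.9 and 53.2 for *EDNRB* in endothelium, 210.2, 217 and 102 for *EDNRA* in mesenchyme, and 126, 137 and 68.2 for *ETS1* in endothelium. At resolution 1.0 *EDNRA* in mesenchyme-like cells was 259.7, 279.8 and 125 CPM. With the 8% of cells of highest doublet score left out, *TFAP2B* in epithelium-like cells of E16 HS was 37.7 CPM and *ETS1* in endothelium-like cells of E19 HSTS 202 CPM. Among genes with at least 100 UMIs, 2.72% and 11.3% passed 2-fold between the breeds and between the ages. The causes were not tested, other than that thinning and a higher limit leave fewer UMIs. Depth limits *SOX10* and *FOXD3* most, and with 1 library per group differences between embryos, breeds and preparations cannot be told apart.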

Other observations

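The ligands of the receptors differed in the classes that held them. *EDN1*, which acts on both endothelin receptors, stood at 41.9, 41.1 and 29.0 CPM in endothelium-like cells (order of libraries as before), which held 51.6%, 55.3% and 31.6% of its UMIs. *EDN3* stood at 12.0, 15.8 and 8.58 CPM in somite-like cells, the class with most *SOX10* cells, and had 70.6%, 70.9% and 48.2% of its UMIs there. *ECE1* was at 29.7, 36.9 and 14.5 CPM in endothelium-like cells, and *EDN2* was not detected in any library. *NRG1*, the neuregulin of axons, stood at 14.8 and 17.0 CPM in neuron-like cells of the E19 libraries and at 9.82, 7.59 and 12.7 CPM in neural progenitor-like cells. *NRG2* was at 0.532 and 0.259 CPM in the E19 libraries and 4.59 CPM in E16 HS, where mesenchyme-like cells held 92.1% of it.

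Ranked by the lowest of the 3 within-library ratios between cells with and without a gene, the genes most like *SOX10* of 1102 were *APOD* (58.0, 24.8 and 36.6), *CDH6* (7.46, 6.16 and 3.76), *DNAJC1* (4.90, 3.70 and 4.11), *NRIP1*, *PDLIM1*, *ROBO1*, *GNG2*, *VCAN*, *CDC42EP5* and *TES*. For *TFAP2B* they were *CXCL14* (63.1, 26.6 and 41.0), *CALB1* (37.5, 30.6 and 26.4), *TFAP2A* (25.1, 20.3 and 28.8), *APOD*, *TAC3*, *PLAC9*, *GALNT3*, *DLX5*, *NAALADL2* and *GCA*. Those of *ERBB3* were *APOD* (13.2, 10.3 and 10.2), *FGG*, *SERPINA1*, *TTR*, *ACSM3*, *KNG1*, *SLC39A5*, *AHSG*, *HPN* and *CLDN4*, of which several are secreted by extraembryonic endoderm and liver. *EDNRB* had *APOD* (14.5, 12.5 and 16.1), *C1orf54*, *MCAM*, *NTS*, *PLVAP*, *ADAM12*, *TPPP3*, *PLAC9*, *CBR3* and *KLF2*. *EDNRA* had *DPT* (119, 16.9 and 15.8), *PAX1*, *TNFAIP6*, *GLT8D2*, *UNCX*, *VCAM1*, *MFAP4*, *COL6A3*, *GNG8* and *MEOX2*, and *ETS1* had *CDH5* (69.6, 29.7 and 16.4), *ESM1*, *ENG*, *NTS*, *PECAM1*, *PLVAP*, *CD93*, *MCAM*, *NOS3* and *ITGA1*. *APOD* was thus named for 4 of the genes. The limit of 20 UMIs applied only to the cells with the gene. In E19 HSTS *DPT* stood at 0.0266 CPM in cells without *EDNRA*, close to no counts, so the size of its ratio of 119 is uncertain. For *FOXD3*, with 5 to 7 cells per library, no such list is given. With at least 50 UMIs in place of 20, 3 of the 10 genes were shared for *SOX10*, 8 for *TFAP2B*, 7 for *ERBB3*, 5 for *EDNRB*, 7 for *EDNRA* and 6 for *ETS1*. In thinned cells 0 were shared for *SOX10*, 3 for *TFAP2B* and 2 each for *ERBB3*, *EDNRB*, *EDNRA* and *ETS1*, so these rankings depend on depth and detection.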
